A study of Mus musculus with 6 samples.

Results

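This account covers 33 mouse genes of homologous recombination, the Fanconi anaemia pathway, DNA mismatch repair and the checkpoint kinases that act with them, measured by RNA sequencing in melanoma cells with and without Spp1. The members were a list of gene symbols named by pathway, with no rule on their values but with earlier results of these data known. All 33 were found among the 19213 genes of the deposited table. PolyA RNA was sequenced as paired-end libraries from 3 samples with a non-targeting CRISPR control (genotype label Non-targeting control) and 3 samples in which Spp1, the gene of the secreted phosphoprotein osteopontin, had been disrupted with CRISPR-Cas9 (genotype label Spp1 Knockout). The cell line label begins at B16F10, a mouse melanoma line, in control 1 and changes by a unit per sample to B16F15 in knockout 3. If the cells differed, that difference cannot be told apart from the knockout. The labels call the samples biological replicates of 1 batch but do not say whether they came from separate cultures, or whether the knockout cells were a clone or a pool. The p-values therefore rest on the variation among 6 libraries, part of which may be technical.

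Homologous recombination repairs broken DNA by copying the sister chromatid. The ends are resected, the BRCA proteins prepare them for strand exchange, and motor proteins and helicases complete and dissolve the exchange. The Fanconi pathway uses many of the same proteins to release crosslinks between DNA strands: a core complex attaches ubiquitin to the FANCD2-FANCI pair, which then directs the excision and repair of the lesion. Mismatch repair corrects errors of the DNA polymerases, and the kinases ATM and ATR, through CHK2 and CHK1, halt the cell cycle while repair proceeds. Many of these genes are transcribed mainly in dividing cells, at the passage into S phase.

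The libraries held 72717465 to 94314770 reads in listed genes. Values are reads divided by the authors' size factor of the library, called scaled reads. Libraries of a group correlated at r = 0.996 to 0.997 across genes, and between groups at 0.980 to 0.982. The scaled reads of Spp1 were 149, 156 and 145 in the control libraries and 2.09, 1.98 and 3.90 in the knockout libraries (log2 change -5.41 ± 0.25, SE; limma adjusted p = 8.98e-11), in the direction of the genotype labels. All 7 melanocyte markers were read, with summed levels of 898571 to 914819 scaled reads in control and 1059657 to 1070434 in knockout. Of these 4 rose, 1 fell and 2 did not pass, with log2 changes from -0.55 to 0.35. Of 8 leukocyte markers 5, among them Ptprc, Cd3e and Itgam, are not in the table, and the summed level of the other 3 was 269 to 279 in control and 84.9 to 89.0 in knockout. Endothelial and keratinocyte markers summed to at most 8.37 and 30.3 scaled reads. Of 5 fibroblast markers 3 were listed, with sums of 804 to 899 in control and 927 to 997 in knockout that hide opposite moves: Col1a2 rose by 2.54 on the log2 scale, and Col1a1 and Pdgfra fell by 3.70 and 0.71. The part of these shifts in the results below was not tested.

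Most members were slightly higher in the Spp1 knockout. Of the 33, 25 rose, 4 fell (Atr, Fancc, Rad51c and Xrcc3) and 4 did not pass (limma, adjusted p under 0.05 over 15307 genes tested). All 33 passed the filter on low values. In the whole transcriptome 63.0% of tested genes were called, 34.4% as higher and 28.6% as lower. The median log2 change was 0.17 over the members and 0.025 over all tested genes. In 26 members every knockout library lay above every control library, and in 3 below; groups did not overlap in 67.1% of all tested genes, 36.3% upwards and 30.8% downwards. Well-read genes were called higher more often in general. Among the 7830 genes whose mean lay between those of the lowest and the highest member (721 to 12160.3 scaled reads), 47.0% were higher and 28.1% lower.

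The changes were small. In 25 members the log2 change was under 0.3 in size, and the SE of the members ran from 0.03 to 0.06. Against a change of 1.2-fold, 4 members rose (Rad51d, Bard1, Fanca and Mre11a) and 1 fell (Atr), where 10.3% and 14.2% of all tested genes did. With every library brought to the same total, 21 members rose and 4 fell (background 29.2% and 32.9%), and in edgeR on the 5 libraries with recovered reads 20 rose and 4 fell (58.0% of all genes called, 28.1% higher and 29.9% lower). Fewer transcribing cells and less RNA per cell cannot be told apart in bulk RNA, and shares of the cell cycle phases were not measured.

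**Figure D1:**
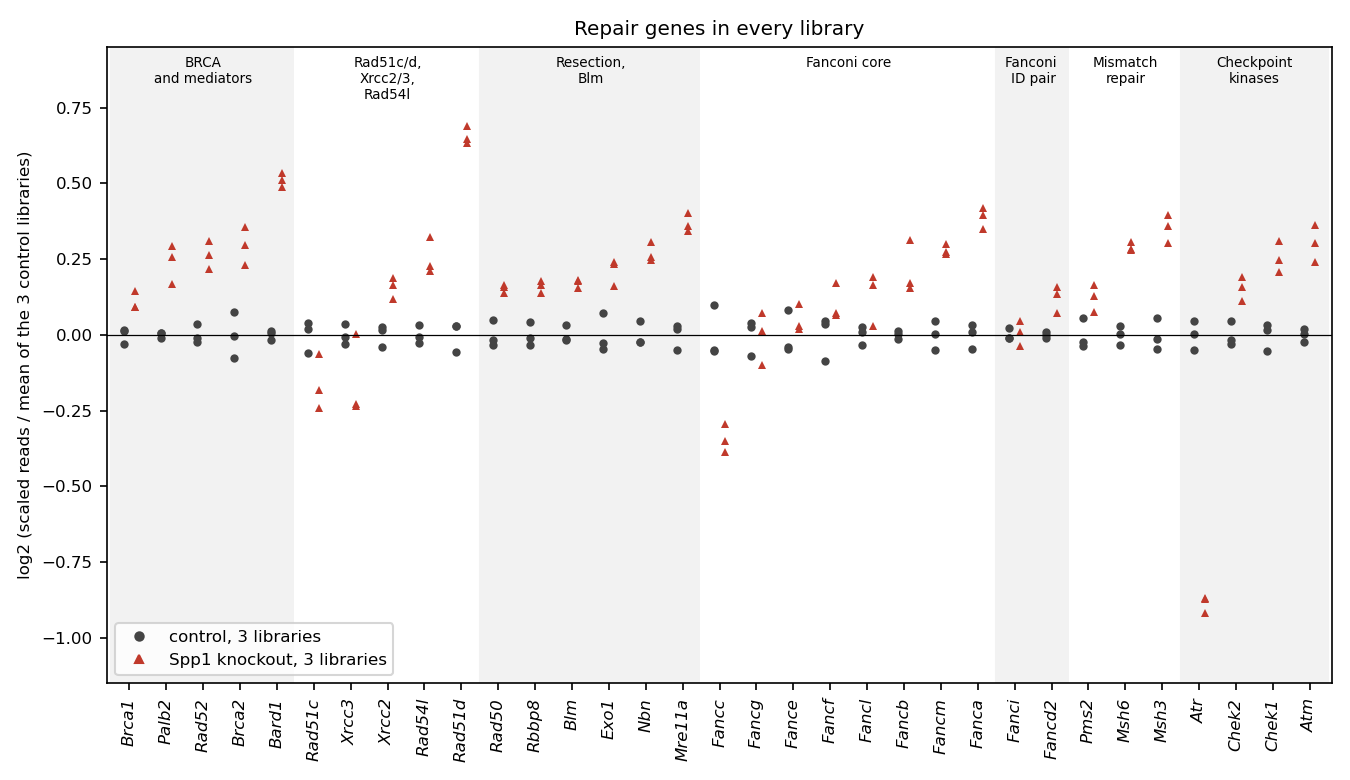
Each point is 1 library, as the log2 ratio of its scaled reads to the mean of the 3 control libraries (vertical axis), for the 33 members grouped by pathway (horizontal axis); circles are control and triangles Spp1 knockout. Most triangles lie a little above 0, those of Rad51d and Bard1 furthest above, and those of Atr and Fancc lie below.

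Promoters were examined for letters that E2F factors, the transcription factors of S phase entry, are known to bind. RefSeq windows (GRCm38.p6, 250 bases before to 50 after the start) were at hand for 26 members. The words searched were TTTCCCGC, TTTGGCGC, TTTCGCGC and TTTGCCGC on both strands. They occurred in 7 of the 26 members (26.9%), in 2.60% of all 27025 genes with a window and in 4.72% of the 9789 tested genes with one. The matches are shown with 10 bases on each side, 5′ to 3′ on the strand of the gene, the word in capitals, because 7 members carry one and the choice of members did not use them. The Msh3 words overlap, so the second is not shown, and Rad51c has a match at each of its annotated starts.
Bard1, chr1:71103164-71103191, minus strand: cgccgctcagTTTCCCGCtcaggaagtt
Brca2, chr5:150522443-150522470, plus strand: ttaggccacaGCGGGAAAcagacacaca
Chek2, chr5:110839821-110839848, plus strand: gggattagccGCGGGAAAccaagacgtc
Fancg, chr4:43010336-43010363, minus strand: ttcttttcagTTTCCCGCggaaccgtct
Msh3, chr13:92355188-92355215, minus strand: tgccgtcaagTTTGGCGCgaaatcgcag
Msh6, chr17:87975055-87975082, plus strand: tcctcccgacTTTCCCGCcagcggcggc
Rad51c, chr11:87404478-87404505, minus strand: tttccagcgcTTTCGCGCctcttgctct
Rad51c, chr11:87404942-87404969, minus strand: ccccgcgaggGCGGGAAAagcaaggggt
Of the 7 genes with such a word 5 rose, Rad51c fell and Fancg did not pass, and their median log2 change was 0.29. Of the 19 without, 13 rose and 3 fell, and the median was 0.17. Over all tested genes 34.4% rose and 28.6% fell, and over those at the members' levels 47.0% and 28.1%. No difference between members with and without a word was tested. A match is a description of these letters and no evidence of binding.

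The 250 bases before the RefSeq start are given for the members with the largest rises and falls among those with a window. E2F words and CCAAT boxes (CCAAT on either strand) are in capitals. Over the whole windows, 50 bases after the start included, CCAAT occurred in 61.5% of the 26 members. It occurred in 43.1% of tested genes and in 41.1% of all genes with a window. Bard1 carries an E2F word, Fanca carries 2 CCAAT boxes close to its start, Fancc carries 1 far from it, and Atr holds neither in these bases. The RefSeq start used for Fancc lies inside the GENCODE span of the gene given below, far downstream of its annotated 5′ end, so that window is not the promoter of the longest Fancc transcript. For Bard1 the RefSeq start also lies inside the GENCODE span given below, so part of the Bard1 bases lies within the annotated gene.
Bard1, chr1:71102973-71103222, minus strand: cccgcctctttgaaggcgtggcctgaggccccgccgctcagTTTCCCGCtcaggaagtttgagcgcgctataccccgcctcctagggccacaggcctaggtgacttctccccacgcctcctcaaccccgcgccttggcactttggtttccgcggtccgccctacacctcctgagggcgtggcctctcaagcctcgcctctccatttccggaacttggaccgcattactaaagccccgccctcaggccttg
Fanca, chr8:123318577-123318826, minus strand: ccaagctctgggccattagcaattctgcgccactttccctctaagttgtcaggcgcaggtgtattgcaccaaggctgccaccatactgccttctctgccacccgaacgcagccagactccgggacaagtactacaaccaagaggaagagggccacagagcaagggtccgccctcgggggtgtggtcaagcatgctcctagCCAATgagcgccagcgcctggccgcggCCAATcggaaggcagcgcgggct
Atr, chr9:95857347-95857596, plus strand: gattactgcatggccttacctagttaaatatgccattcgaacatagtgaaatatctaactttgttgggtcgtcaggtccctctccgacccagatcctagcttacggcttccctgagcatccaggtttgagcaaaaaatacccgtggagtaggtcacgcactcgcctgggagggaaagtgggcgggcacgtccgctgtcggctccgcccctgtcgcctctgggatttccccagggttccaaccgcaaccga
Fancc, chr13:63431746-63431995, minus strand: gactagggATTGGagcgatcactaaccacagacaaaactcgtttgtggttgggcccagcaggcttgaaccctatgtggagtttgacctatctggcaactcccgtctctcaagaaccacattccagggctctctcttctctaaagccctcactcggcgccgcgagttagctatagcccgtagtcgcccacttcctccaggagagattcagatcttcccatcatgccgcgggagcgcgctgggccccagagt

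All 5 genes of the BRCA proteins and their mediators passed as higher, with log2 changes from 0.11 to 0.51 and a median of 0.26. Of all tested genes 34.4% were higher, and of those at the members' levels 47.0%. Bard1, the obligate partner of BRCA1 in its ubiquitin ligase (chr1:71027498-71103146, minus strand, mm10), stood at 2155, 2110.1 and 2148 scaled reads in control and at 3097, 3046 and 2997 in knockout. The knockout libraries were close to each other and far above the control libraries. The mean rose from 2138 ± 24.0 to 3047 ± 50.04 (SD, n = 3), by 0.51 ± 0.04 on the log2 scale (SE, limma adjusted p = 1.22e-08). Brca2, a mediator of strand exchange, stood at 2474, 2604 and 2746 in control and at 3339, 3202 and 3061 in knockout. Its groups did not overlap, although the control libraries spread more than those of Bard1. The log2 change of Brca2 was 0.30 ± 0.05 (limma adjusted p = 4.11e-05). Palb2, which joins BRCA1 to BRCA2, rose by 0.24, and Rad52, an annealing protein that backs up BRCA2 in mammals, rose by 0.26. Brca1, among the best read members at 11700 ± 203 scaled reads in control, rose by 0.11 ± 0.03 (limma adjusted p = 0.00631). The call of Brca1 was lost with equal totals and in edgeR on 5 libraries (adjusted p = 0.0905 and 0.0533).

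Rad51c, Rad51d, Xrcc2 and Xrcc3, which act in shared complexes during strand exchange, parted. Rad51d (chr11:82876434-82890614, minus strand, mm10) showed the largest rise of all members, from 2171, 2173 and 2046 scaled reads in control to 3432, 3302 and 3333 in knockout. The groups were far apart, with means of 2129.8 ± 73.0 and 3356 ± 68.0 (SD, n = 3). The change was 0.66 ± 0.04 on the log2 scale (limma adjusted p = 1.66e-09), a rise of 57.6%. Its complex partner Xrcc2 rose by 0.16 ± 0.04 (limma adjusted p = 0.00301), a call lost in DESeq2 (adjusted p = 0.0533). Rad51c, shared by both complexes, was read at 1726, 1705 and 1613 in the control libraries and at 1422, 1610.4 and 1481 in the knockout libraries, a log2 change of -0.16 ± 0.05 (limma adjusted p = 0.0132). Xrcc3, the partner of Rad51c in the smaller complex, changed by -0.15 ± 0.06 (limma adjusted p = 0.0381). In knockout 2 Rad51c came close to the control range and Xrcc3, at 1417, lay within it. Without knockout 1 neither passed (limma adjusted p = 0.0850 and 0.169), and Xrcc3 also failed on leaving out control 1 (adjusted p = 0.106), control 3 (0.0619) or knockout 3 (0.145). Rad54l, a DNA translocase that acts in strand exchange, stood at 4025, 3968 and 4139 in control and at 4680.0, 5059 and 4733 in knockout, all above control. It rose by 0.25 ± 0.04 (limma adjusted p = 3.01e-05).

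All 6 genes of end resection and its helicase rose, by 0.15 to 0.37 on the log2 scale with a median of 0.19. The share that rose was 34.4% over all tested genes and 47.0% over those at the members' levels. Mre11a, the nuclease of the MRN complex that senses broken ends, stood at 4324, 4572 and 4545 scaled reads in control and at 5750.1, 5687 and 5921 in knockout. All knockout libraries were above all control libraries, and the log2 change was 0.37 ± 0.04 (limma adjusted p = 2.36e-07). Nbn, the MRN subunit that recruits ATM, stood at 5597, 5603 and 5867 in control and at 6744, 6804 and 7029 in knockout. It also moved without overlap, by 0.27 ± 0.03 (limma adjusted p = 4.65e-06). The ATPase subunit Rad50 rose by 0.15, the resection cofactor Rbbp8 (CtIP) by 0.16, the Bloom helicase Blm by 0.17 and the exonuclease Exo1, which also acts in mismatch repair, by 0.21. The 6 calls held under every alternative except the test against 1.2-fold, which Mre11a alone passed.

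The Fanconi genes were mixed. In the core complex 4 of 8 members rose, 1 fell and 3 did not pass, with a median log2 change of 0.12. That share of rises is near the 47.0% of genes at the members' levels, of which 28.1% fell. Fanca, a scaffold subunit, stood at 4898, 4712 and 4979 scaled reads in control and at 6192, 6493 and 6396 in knockout, well above. It rose by 0.39 ± 0.03 on the log2 scale (limma adjusted p = 1.24e-07). Fancc (chr13:63285043-63497278, minus strand, mm10) stood at 1325, 1194 and 1198 in control and at 947, 1011 and 972 in knockout. Every knockout library was below every control library, and the log2 change was -0.34 ± 0.06 (limma adjusted p = 5.81e-05). Fancc shares 16.4% of its exon length with the predicted gene Gm16133, the largest such share among the members. Fancm, the translocase that anchors the core complex on DNA, rose by 0.28 and Fancb, an X-linked subunit of the catalytic module, by 0.21. Fancl, the ubiquitin ligase itself, rose by 0.13 ± 0.05 (limma adjusted p = 0.0375). That call was lost with equal totals (adjusted p = 0.194), in edgeR and DESeq2 on 5 libraries (0.372 and 0.402) and on leaving out any library other than knockout 1 (limma adjusted p 0.0515 to 0.154). Fance, Fancf and Fancg, adaptor subunits, stood at 0.051, 0.10 and -0.0042 and did not pass (limma adjusted p = 0.405, 0.15 and 0.953), although the Fancf groups did not overlap.

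The substrate pair of the core complex moved little. Fancd2 stood at 7289.7, 7243 and 7347 scaled reads in control and at 7674, 8005 and 8137 in knockout, without overlap (log2 change 0.12 ± 0.03, limma adjusted p = 0.00418). With equal totals, edgeR and DESeq2 it did not pass (adjusted p = 0.0604, 0.0801 and 0.0787). Fanci stood at 4304, 4403 and 4309 in control and at 4363, 4231 and 4475 in knockout, so the ranges overlapped. Its log2 change was 0.0056 ± 0.04 (limma adjusted p = 0.901), and below 0 with equal totals, TMM rescaling and edgeR. Fanci shares 16.0% of its exon length with Polg, on the opposite strand.

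The mismatch recognition genes rose. Msh6, which recognises single mispaired bases, stood at 7127, 7305 and 7447 scaled reads in control and at 8851, 9028 and 8871 in knockout. Msh3, which recognises larger loops, stood at 2955, 3025 and 3172 in control and at 3762, 3908 and 4013 in knockout. For both, every knockout library was above every control library. The log2 changes were 0.29 ± 0.03 for Msh6 and 0.35 ± 0.04 for Msh3 (limma adjusted p = 9.30e-07 and 1.52e-06). Pms2, the endonuclease subunit that acts after recognition, rose by 0.12 ± 0.05 (limma adjusted p = 0.0284). The Pms2 call was lost with equal totals and in edgeR and DESeq2 (adjusted p = 0.174, 0.293 and 0.338), and on leaving out control 2 (limma adjusted p = 0.0879), control 3 (0.0799), knockout 2 (0.105) or knockout 3 (0.0610).

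The 2 apical checkpoint kinases went in opposite directions. Atr, the kinase that answers stalled replication forks (chr9:95857597-95951781, plus strand, mm10), stood at 3025, 3229 and 3132 scaled reads in control and at 1709, 1657 and 1713 in knockout. The groups were far apart, and the mean fell from 3128 ± 102 to 1693 ± 31.3 (SD, n = 3). The log2 change of -0.89 ± 0.04 (limma adjusted p = 8.48e-11) was the largest of any member and left 0.541 of the control level. Atm, the kinase that answers broken DNA, stood at 6408, 6519 and 6593 in control and at 8021, 7686 and 8370.2 in knockout. All knockout libraries were above control, and Atm rose by 0.30 ± 0.04 (limma adjusted p = 2.39e-06). Their effector kinases both rose, Chek1, the target of ATR, by 0.26 ± 0.04 and Chek2, the target of ATM, by 0.15 ± 0.04 (limma adjusted p = 1.93e-05 and 0.00261). Chek2 did not pass in edgeR or DESeq2 on 5 libraries (adjusted p = 0.0551 and 0.0744).

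Ratios between genes whose products act as partners do not depend on how the libraries were scaled. For 10 such pairs, chosen with the values known, the ratio of scaled reads was taken in each library. Because of that choice the ratios are given as a description, with no test. In 7 pairs the groups did not overlap. For single genes this held in 67.1% of all tested, and the share over other gene pairs was not taken. Atr to Atm was 0.472, 0.495 and 0.475 in control and 0.213, 0.216 and 0.205 in knockout. Rad51d to Rad51c was 1.26, 1.27 and 1.27 in control and 2.41, 2.05 and 2.25 in knockout. Bard1 to Brca1 was 0.182, 0.184 and 0.182 in control and 0.239, 0.245 and 0.240 in knockout. In all 3 cases the shift was many times the spread within a group. Rad51d to Xrcc2, Mre11a to Rad50, Nbn to Rad50 and Fancd2 to Fanci also rose without overlap, by 0.50, 0.22, 0.12 and 0.12 on the log2 scale. Msh3 to Msh6, Palb2 to Brca2 and Xrcc3 to Rad51c overlapped between groups, with log2 differences of 0.062, -0.057 and 0.0094.

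**Figure D2:**
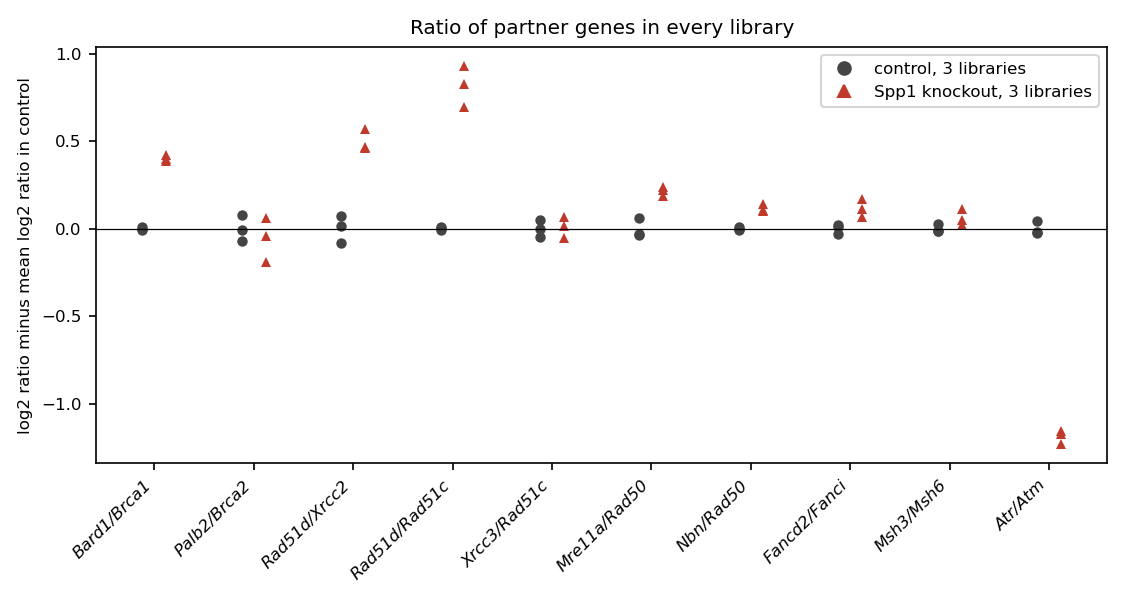
For 10 partner pairs (horizontal axis) each point gives the log2 ratio of the pair in 1 library minus the mean log2 ratio of the 3 control libraries (vertical axis); circles are control and triangles Spp1 knockout. The triangles of Atr/Atm lie near -1.19, those of Rad51d/Rad51c near 0.82, and 3 pairs overlap with control.

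Several members lie in stretches of a chromosome where neighbouring genes moved the same way. For each member the 25 nearest tested genes on each side were taken as neighbours. Their log2 values, each centred on the mean of its gene, gave a median in every library. The neighbours' median is the mean of these medians in knockout minus that in control. It ran from -0.35 at Atr to 0.21 at Fance, with a median of 0.069 over the members and 0.068 over all tested genes. Around Fancc 38 of 50 neighbours fell and 5 rose (median -0.32), and 24 fell at least as far as Fancc. After subtraction of the neighbours' median the Fancc change was -0.019, which did not pass (limma adjusted p = 0.792). Around Atr 29 of 50 fell and 3 rose, but 7 fell as far as Atr, which stood at -0.53 net of its neighbours and still passed (limma adjusted p = 2.76e-09). Atm, Chek1 and Mre11a lie on chromosome 9 as well, where their neighbours' medians were 0.051, 0.15 and 0.094.

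For the members with the largest rises, the neighbours' median was smaller than the member's own change. Around Rad51d 25 neighbours rose and 14 fell with a median of 0.090. Only Tmem98, at 7.64, rose as far as Rad51d, and 6 of 50 neighbours moved as far in either direction. Around Bard1 11 rose and 13 fell with a median of -0.011. There 5 had a log2 change at least that of Bard1, past the threshold or not, among them the adjacent Abca12 at 1.77. Of the 5, Gm25360 and Gm25939 did not pass (limma adjusted p = 0.740 and 0.697). In either direction 13 of 50 moved as far, again past the threshold or not. Net of neighbours Rad51d went from 0.66 to 0.57, Bard1 from 0.51 to 0.52, Fanca from 0.39 to 0.27 and Mre11a from 0.37 to 0.28. In that fit 21 members were higher and 4 lower (background 29.2% and 28.2%), the lower ones being Atr, Rad51c, Xrcc3 and Fance. Fance, with a neighbours' median of 0.21, stood at -0.16 there (limma adjusted p = 0.0123). The calls of Brca1, Fancd2, Chek2 and Pms2 were lost, at 0.075, 0.053, -0.043 and -0.055 (limma adjusted p = 0.0713, 0.211, 0.349 and 0.328). Across the 33 members the change and the neighbours' median correlated at Pearson r = 0.62 (Spearman 0.20), at 0.34 without Atr and at -0.082 without Atr and Fancc. This is a description across genes that share libraries, and it rests on those members.

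**Figure D3:**
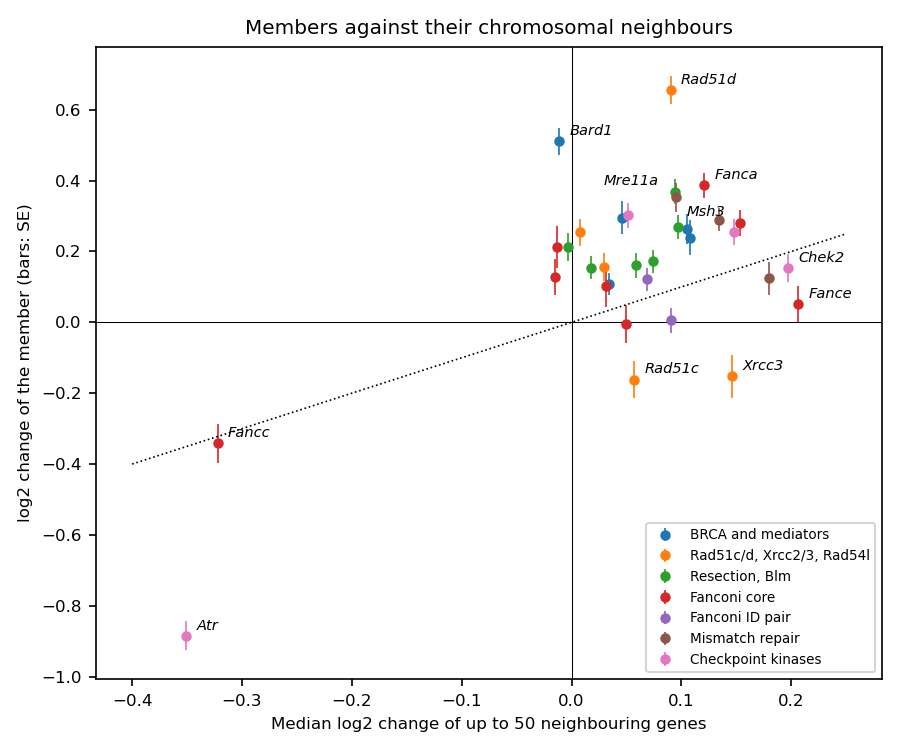
Each point is a member, with its neighbours' median (log2, knockout minus control) on the horizontal axis and its own log2 change with SE on the vertical axis. Colours mark the pathway and the dotted line marks equality. Fancc (-0.34 against -0.32) lies close to the line, Atr (-0.89 against -0.35) far below it and most members above it.

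**Figure D4:**
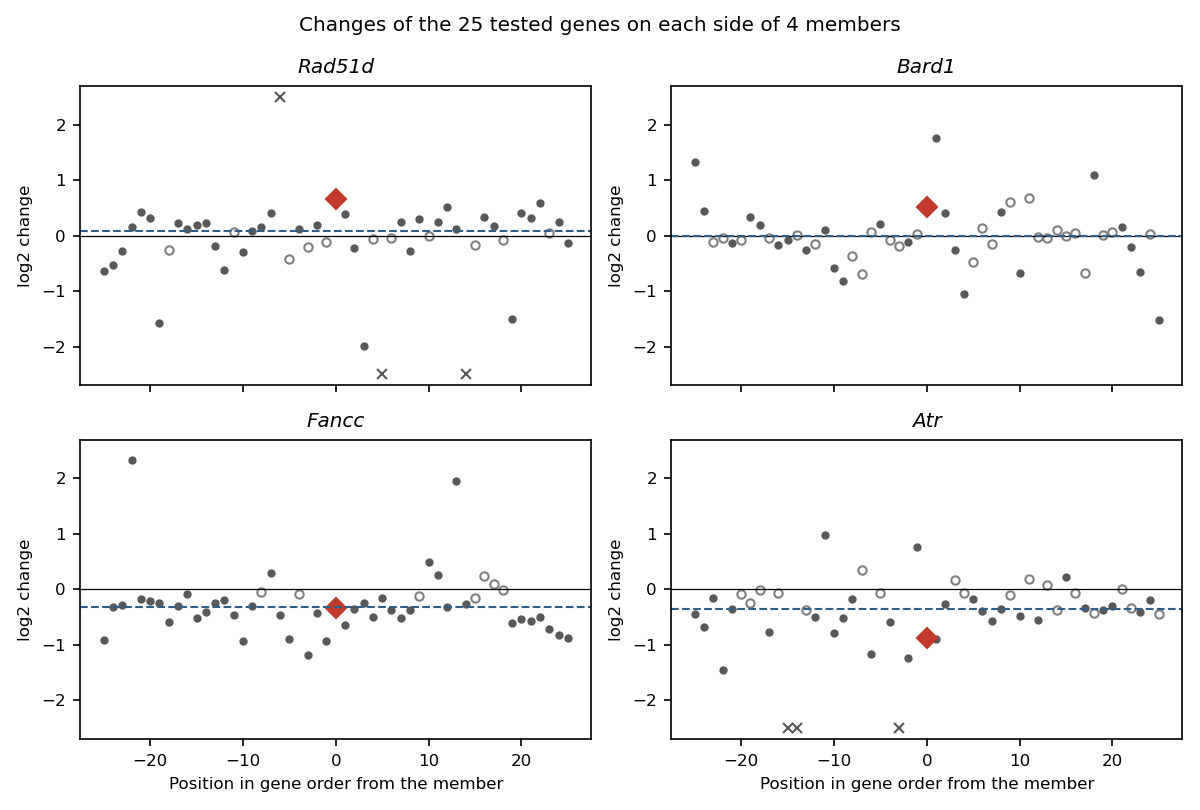
The log2 change (vertical axis) of the 25 tested genes on each side of Rad51d, Bard1, Fancc and Atr, by their order along the chromosome (horizontal axis). The diamond is the member, filled circles are genes past adjusted p 0.05, open circles those that were not, crosses those beyond the axis, and the dashed line is the neighbours' median, at -0.32 for Fancc and -0.35 for Atr.

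Levels were also compared per kilobase of the longest annotated coding transcript (GENCODE M21). On that scale Nbn, Brca1, Rad50 and Msh6 were highest in control, at 2246, 1780.3, 1753 and 1716 scaled reads per kilobase. Fancb, Brca2, Palb2 and Pms2 were lowest, at 224, 243, 275 and 279. Atr stood at 386 and Atm at 663 per kilobase in control, and at 209 and 817 in knockout. In a group of 3 the coefficient of variation of a member ran from 0.606% (Palb2) to 6.04% (Fancc) in control and from 0.949% (Rad50) to 9.56% (Xrcc3) in knockout.

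Other genes of the same pathways were counted from lists written from general knowledge. Of 93 tested, 44 rose (47.3%) and 21 fell (22.6%), and the median was 0.094 on the log2 scale. Among all tested genes the shares were 34.4% and 28.6%. Genes read at the members' levels came close to the 93, with 47.0% higher, 28.1% lower and a median of 0.080. Among 42 further recombination genes 17 rose and 9 fell. Rmi2, a subunit of the complex that dissolves crossovers with BLM, rose by 0.78, and Slx4, a scaffold of nucleases, by 0.51. Rmi1, the partner of Rmi2, fell by 0.52 and Mcm9, a helicase subunit, by 0.50. Rmi1 shares 27.3% of its sequence words with other genes and is itself among the neighbours of Fancc. Net of its own neighbours it stood at -0.23 and still passed (limma adjusted p = 0.000840). Mcm9 on chromosome 10 stood at 0.12 net of its neighbours and did not pass there (limma adjusted p = 0.0655).

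In the further Fanconi list 9 of 19 rose and 5 fell, with Slx4 again and Faap24, a partner of FANCM, at 0.39 upwards. Rev3l, the catalytic subunit of polymerase zeta, and Wdr48, a cofactor of the deubiquitinase of FANCD2, fell by 0.37 and 0.36. Net of neighbours Rev3l was at 0.26 and Wdr48 at -0.055. In mismatch repair 10 of 17 rose and 3 fell. Lig1, a DNA ligase, and Pold1, the catalytic subunit of polymerase delta, rose by 0.37 and 0.36, while Pold4, its smallest subunit, fell by 0.55. Pold4 shares 24.6% of its exon length with another gene. In the checkpoint list 10 of 18 rose and 4 fell. Wee1, a kinase that restrains CDK1, and Hus1, a subunit of the checkpoint clamp, rose by 0.47 and 0.44. The fork protection partners Timeless and Tipin fell by 0.43 and 0.32. Net of neighbours Timeless was at 0.19 and Tipin at 0.013.

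Among 3 other repair pathways, nucleotide excision repair had 16 of 24 genes higher and 2 lower, base excision repair 10 and 4 of 19, and end joining 4 and 2 of 13. The medians were 0.17, 0.17 and 0.019 on the log2 scale, against 0.17 over the members. Net of neighbours the nucleotide excision genes stood at 9 higher and 8 lower. Ercc8 and Ercc6, which act when polymerases stall at lesions, rose by 0.54 and 0.41, and Uvssa and Ddb2 fell by 0.19 and 0.18. Ddb2 shares 23.8% of its exon length with Acp2. Nthl1, a glycosylase, and Xrcc1, a scaffold of base excision repair, rose by 0.73 and 0.51, while the glycosylases Neil1 and Tdg fell by 0.60 and 0.28. Tdg shares 41.2% of its words with other genes and stood at 0.28 net of its neighbours. In end joining Dclre1c (the Artemis nuclease) and Aplf rose by 0.35 and 0.22, and Aptx and Xrcc6 (Ku70) fell by 0.25 and 0.13. Xrcc6 stood at 0.11 net of its neighbours. No difference between lists was tested.

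**Figure D5:**
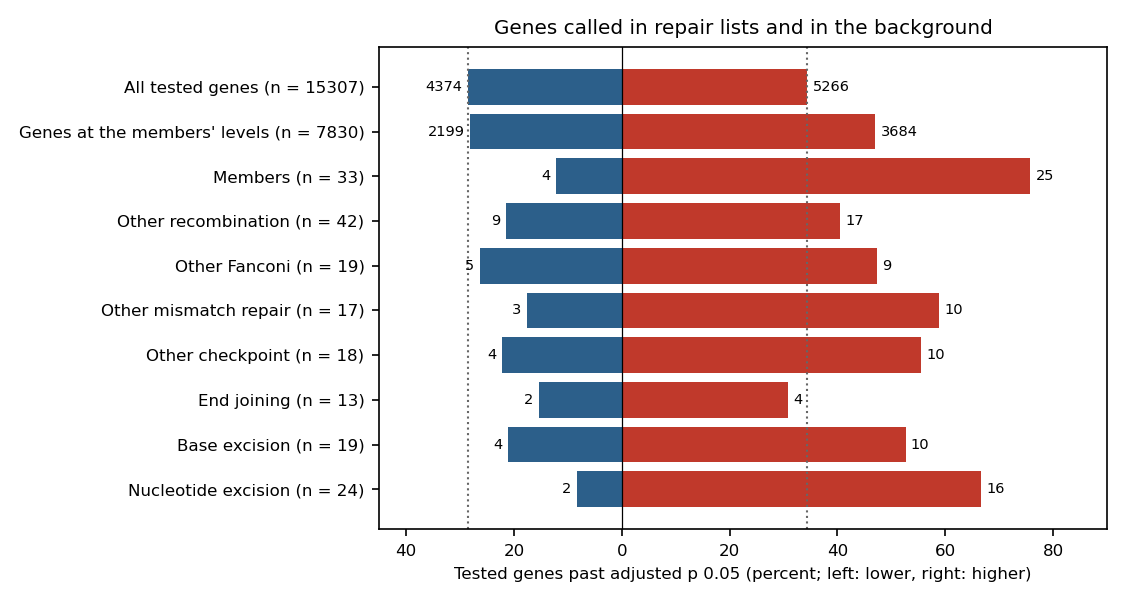
Bars give the percent of tested genes of each list that were higher (right) or lower (left) in knockout at adjusted p under 0.05, with the number of genes at the bar end; dotted lines mark the shares of all tested genes, 34.4% and 28.6%. The members have 25 higher and 4 lower, and nucleotide excision repair has 16 and 2. End joining, with 4 and 2, is the one repair list below the share of higher genes among all tested.

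Regulators of S phase genes and markers of dividing cells were read beside the members, and the genes named here were chosen after their values were seen. Of 22 tested, 7 rose (31.8%) and 4 fell (18.2%), against 34.4% and 28.6% of all tested genes, and the median was 0.038 on the log2 scale. E2f8, Mybl2, Foxm1 and E2f1, transcription factors of the dividing cell, rose by 0.54, 0.53, 0.44 and 0.37. E2f4, E2f2 and Lin54 rose by 0.36, 0.32 and 0.25. The 4 that fell were E2f5 by 0.20, Tfdp2 by 0.17, E2f7 by 0.16 and Rbl2 by 0.099. The proliferation marker Mki67 and the topoisomerase Top2a stood at 0.034 and -0.0077 and did not pass (limma adjusted p = 0.490 and 0.836). The part of these shifts in the members' changes was not tested.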

How the data were processed

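The deposited table holds signal values: the authors divided the reads of each gene by 1 DESeq size factor per library, per the labels and the series' design text. Per the submitters' processing notes the build was mm10 and the tools were STAR 2.5.0a, cutadapt 1.6, DESeq and HTSeq 0.5.3. The strand setting was not given in the sources used here, nor the annotation release, so reads of overlapping genes cannot be told apart. In each library 100% of values were whole multiples (within 0.001) of a step taken as 1 read. Knockout 2, where 1 read is worth 0.989, was left out of tests on recovered reads although its values were whole multiples too. In those tests edgeR called 8879 genes. A call lost there cannot be told apart from the loss of a library. The library left out is the one in which Rad51c came close to the control range and Xrcc3 lay within it. Genes without a read in some library are not in the table.

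Values were tested as log2(value + 1) in limma 3.58.1 (R 4.3.3) with trended, robust variance, two-sided, over genes at 10 or more in at least 3 libraries, p-values being adjusted by Benjamini-Hochberg and called under 0.05. Fold changes on this scale understate those of low genes. Alternatives included edgeR 4.0.16 and DESeq2 1.42.0. Positions, lengths and exon overlap came from GENCODE M21 (GRCm38, as mm10), which held 19121 of the 19213 genes. Shared words are 50 bases long. Members given in every library are, per pathway group, those past the threshold with an absolute log2 change of at least 0.3, or else the 2 with the largest change. From other repair lists up to 2 that rose and 2 that fell most are named, except 1 that is not reported here. Members, lists and tests were chosen with earlier results of these data known. The control and knockout samples are in 1 labelled batch.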

Additional observations from a re-analysis of the deposited data

How the results depend on the processing

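Of the 29 calls among the members, 19 rises and the fall of Atr kept direction and threshold under 17 alternatives; the test against 1.2-fold left 5 calls (4 higher and 1 lower), 3749 in all genes (1581 and 2168) and 24 in the other repair lists (17 and 7) in place of 29, 9640 and 101. Falls among members numbered 2 without trend and robust estimation, and 2 to 4 on leaving out a library. The members' median of 0.17 was 0.12 with equal totals, 0.13 with TMM rescaling, 0.13 net of neighbours, 0.13 in edgeR and 0.14 in DESeq2. The cause was not tested. Signs turned where changes were near 0: Fance to -0.16 net of neighbours and -0.011 in edgeR, Fancg (-0.043 to 0.044 on leaving out a library, above 0 without control 1, control 2 or knockout 1), Fanci to -0.044 with equal totals, -0.033 with TMM, -0.085 net of neighbours, -0.0099 in edgeR and -0.014 to 0.026 on leaving out a library, and Pms2 and Chek2 to -0.055 and -0.043 net of neighbours.

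Samples with the same replicate number did not deviate together (correlations -0.11, -0.24 and -0.038). The labels do not say whether the numbers pair the samples, and these correlations cannot decide it. With the replicate block 23 members rose and 3 fell, beside 5058 and 4231 of the 15307 tested genes, and Xrcc3, Fancl and Pms2 did not pass (limma adjusted p = 0.0542, 0.0577 and 0.0599). The lowest read number of a member in a library was 645 (Fancb), and for the least variable members, such as Palb2 and Fancb, counting error alone (2.98% and 3.70%) is larger than the spread seen between the 3 control libraries (0.606% and 0.979%).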
